A study of Homo sapiens with 44 samples.

Results

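The comparison described here sets cardiac cultures of the H1 line at day 30 of differentiation against those at day 20. It uses the 3 wells labelled day 30 (replicates 1, 3 and 10) and the 3 wells labelled day 20 (replicates 1, 2 and 3), chosen by their labels, 6 of the 44 wells sequenced. H1 is an established line of human embryonic stem cells. All 6 wells were coated with LN-521 and LN-221, laminins of the basement membrane, and had received CHIR99021, a GSK3 inhibitor that switches on Wnt signalling, at day 0 and IWP2, which blocks Wnt secretion, at day 3. From day 11 on they shared a complete B-27 type supplement (CTS grade), so the 2 groups differ in the time spent in that medium. No cell type was purified, so each library averages over every cell in its well. The labels do not say whether wells of a day came from separate differentiation runs, and p-values measure only the spread between wells.

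During heart development the first beating cardiomyocytes carry a mixture of atrial and ventricular proteins. Ventricular cells then gain MYL2, the ventricular regulatory light chain, and come to rely on MYH7, the slow beta-myosin heavy chain, while MYH6, the fast alpha chain, prevails in atrial cells. The same mesendoderm that gives heart muscle can also give gut and liver endoderm, and cultures directed to heart can hold such cells.

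Total estimated counts were 27221714, 6937136 and 27003888 in day 20 wells 1, 2 and 3, and 27411186, 23661479 and 11715812 in day 30 wells 1, 3 and 10. A level of 3 counts, the limit that a count of 0 allows, corresponds to 0.110 to 0.410 CPM, which are counts scaled by TMM (a factor per library that allows for a few dominant genes) to a library total of 1000000, in these wells. Day 20 well 2 and day 30 well 10 stood apart from the rest, 1 on each day. Genes of the mitochondrial chromosome held 4.56% of counts in each, against 0.717% to 1.21% in the other 4 wells, and these were the shallowest libraries. Their RNA integrity numbers were 8 and 7.4, against 8.2 to 10 in the others. Wells of both days also differed more from each other than wells of any other day, though days 11, 14 and 90 came closest. The biological coefficient of variation, the spread between wells beyond counting error, was 55.3% at day 20 and 57.9% at day 30. It was 37.9%, 48.9% and 41.7% at days 11, 14 and 90, and 7.88% to 25.3% up to day 9.

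At day 30 the cultures held far less RNA of liver-secreted proteins than at day 20. Single muscle and matrix genes, among them MYL2 and MGP, were higher. Most sarcomere and matrix genes did not pass the test described next. With edgeR's quasi-likelihood test fitted to all 44 libraries, 463 of 22955 tested genes (2.02%) were called, meaning a Benjamini-Hochberg adjusted p under 0.05 and a log2 fold change of at least 1 in either direction. Of these 174 were higher at day 30 (0.758% of tested genes) and 289 lower (1.26%). The 3 wells of a day did not overlap with those of the other in 8.79% of all tested genes, 968 higher (4.22%) and 1050 lower (4.57%). Among the called genes this held for 143 higher and 234 lower ones. The share of calls that were higher was 37.6%. On TPM tested with limma it was 59.0% of 61 calls with a pseudocount of 1 and 22.6% of 53 calls with a pseudocount of 0.1, so the balance of rises and falls depended on the scale.

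These calls rest on a spread estimated over all 12 groups, most of which were tighter than days 20 and 30. When only the 17 libraries of days 11 to 90 were fitted, 5 genes were called (0.0218%). When the 6 wells alone were fitted, edgeR called 0 genes while 1054 had an unadjusted p under 0.05, against 3580 in the fit of all libraries. A limma-voom fit that gives each day its own weight called 14 (0.061%). All of the 5 and all of the 14 were among the 463. In the fits of days 11 to 90, of the 6 wells and with weights, the fitted direction was the same for all 463 genes. Each of these fits takes the change from the same 6 wells, so the direction could hardly differ and is no separate support. In what follows "rose" and "fell" refer to the fit of all 44 libraries, and these calls are lost in the fits of days 11 to 90, of the 6 wells and with weights unless stated otherwise. Leaving out day 30 well 3 raised the count to 958, and leaving out any other single well gave 352 to 685. Without day 20 well 3 or day 30 well 1 the share of higher calls was 52.6% and 53.7%. Without both mitochondria-rich wells 378 genes were called.

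**Figure D1:**
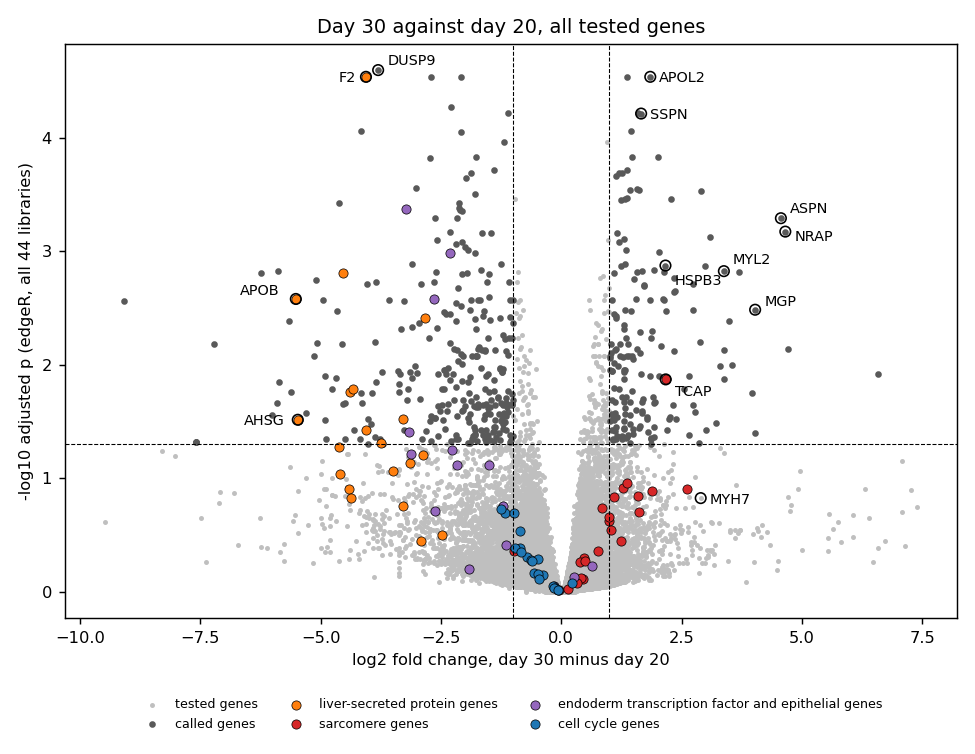
Log2 fold change of day 30 minus day 20 (x axis) against -log10 of the adjusted p of edgeR's quasi-likelihood test (y axis) for 22955 genes; dashed lines mark an adjusted p of 0.05 and log2 changes of 1 in either direction, and ringed points carry gene names. All 20 liver-secreted protein genes lie to the left of 0 and 21 of 23 sarcomere genes to the right, most sarcomere genes under the line of the test.

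**Figure D2:**
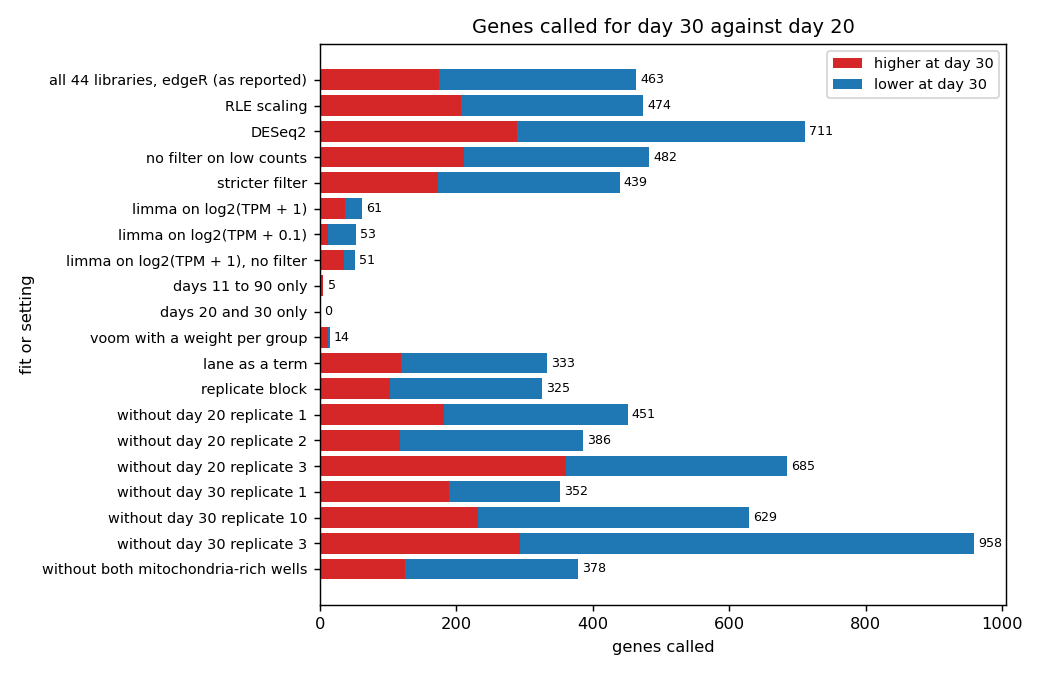
Number of genes called for day 30 against day 20 (x axis) in each fit or setting (y axis), split into genes higher (red) and lower (blue) at day 30. The bars run from 0 in the fit of the 6 wells alone to 958 without day 30 well 3, beside 463 in the fit of all 44 libraries.

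The genes that were called also when only days 11 to 90 were fitted were 4 rises and 1 fall. SSPN (ENSG00000123096, chromosome 12, 26121991 to 26299290, GRCh38) encodes sarcospan, a membrane protein of the dystrophin complex of muscle. It measured 9.44, 7.11 and 7.70 CPM in day 20 wells 1, 2 and 3 and 27.2, 27.1 and 22.6 CPM in day 30 wells 1, 3 and 10. The days were well separated, by 1.66 on the log2 scale (SE 0.24), with adjusted p-values of 6.09e-05 and, in the fit of days 11 to 90, 0.0249. HSPB3 (ENSG00000169271, chromosome 5, 54455601 to 54456384), a small heat shock protein of muscle, was 31.04, 31.73 and 33.52 CPM at day 20 and 117, 130 and 185 CPM in day 30 wells 1, 3 and 10. The day 20 wells were nearly equal and every day 30 well was above them, with a log2 change of 2.16 (SE 0.40, adjusted p 0.00133).

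APOL2 (ENSG00000128335, chromosome 22, 36226203 to 36239954), a member of the apolipoprotein L family, averaged 6.23 ± 0.951 CPM at day 20 and 22.6 ± 6.49 CPM at day 30 (SD, n = 3 each), higher by 1.85 on the log2 scale (SE 0.24). LINC00881, a long non-coding RNA gene that overlaps LINC00880 on chromosome 3 (157089881 to 157101135), averaged 28.6 ± 5.27 CPM at day 20 and 125 ± 24.9 CPM at day 30 (SD, n = 3 each), higher by 2.13 on the log2 scale (SE 0.40). DUSP9, a phosphatase that switches off MAP kinases (ENSG00000130829, chromosome X, 153642492 to 153651326), was the fall. Its levels were 14.3, 8.75 and 36.6 CPM at day 20 and 0.815, 1.85 and 1.72 CPM in day 30 wells 1, 3 and 10. All day 30 wells were below all day 20 wells, and the log2 change was -3.81 (SE 0.47, adjusted p 2.52e-05).

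The weighted fit also called SSPN, HSPB3, APOL2 and LINC00881, but not DUSP9 (adjusted p 0.343). Its other calls included rises of the kinase gene JAK2, of GPR22, a receptor without a known ligand, and of TRDN-AS1, which is transcribed antisense to the triadin gene. JAK2 was 21.1, 19.1 and 17.2 CPM at day 20 and 35.1, 95.5 and 42.7 CPM in day 30 wells 1, 3 and 10. GPR22 was 4.03, 6.02 and 3.43 CPM at day 20 and 23.6, 11.99 and 31.4 CPM at day 30 in the same order. For both genes every day 30 well exceeded every day 20 well. BRINP3, PARP12, ITSN2 and MTUS1 were its remaining rises, with log2 changes between 1.23 and 2.91 in the fit of all libraries. Its falls were HAS2, ID2 and LIN28A. HAS2 makes hyaluronan, a matrix sugar of the early heart wall, and averaged 131 ± 43.9 CPM at day 20 and 19.7 ± 12.5 CPM at day 30 (SD, n = 3 each), with wells that did not overlap.

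The ventricular list had 8 genes, all tested, of which 1 rose and 0 fell, against 0.758% and 1.26% of all tested genes. The lists were chosen with earlier results of these data known, and the 1 that rose was itself taken as a mark of this step. The median log2 change of the list was 0.32, against -0.05 over all tested genes, and 5 members were fitted higher. That median was 0.042 without day 30 well 10 and 0.079 without both mitochondria-rich wells. Without any other single well it was 0.194 to 0.668. The member that rose was MYL2 (ENSG00000111245, chromosome 12, 110910819 to 110920722), at 11.7, 4.92 and 13.5 CPM in day 20 wells 1, 2 and 3. In day 30 wells 1, 3 and 10 it was 265, 33.1 and 22.6 CPM. All day 30 wells were higher than all day 20 wells, but well 1 was far above the others. The log2 change was 3.38 (SE 0.63, adjusted p 0.00149), and without day 30 well 1 the adjusted p was 0.145. Day 90 wells held 222, 259 and 319 CPM, so only 1 of the 3 day 30 wells was within the range of day 90.

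MYH7 (ENSG00000092054, chromosome 14, 23412738 to 23435718) is the slow heavy chain gene, and its mean at day 30 was 7.45 times that at day 20. It measured 1258, 829 and 921 CPM at day 20 and 11367, 7586 and 3443 CPM in day 30 wells 1, 3 and 10. The days did not overlap, yet the log2 change of 2.90 (SE 1.07) did not pass edgeR's test (adjusted p 0.149). MYH6, its neighbour on the chromosome, was 4938, 5988 and 8522 CPM at day 20 and 1931, 1997 and 4021 CPM at day 30 in the same order. Here too the days did not overlap and the change did not pass, with a log2 change of -1.29 (adjusted p 0.127, SE 0.46). The coding sequences of the 2 genes are alike, so reads may have been shared between them.

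The remaining ventricular genes did not pass. IRX4, a ventricular transcription factor, was 109 ± 30.9 CPM at day 20 and 96.9 ± 21.2 CPM at day 30 (SD, n = 3 each). HEY2, a Notch-responsive repressor of atrial genes in the ventricle, was 115 ± 53.7 and 114 ± 49.5 CPM (SD, n = 3 each). MYL3, the ventricular essential light chain, ranged from 284 to 989 CPM at day 20 and from 232 to 1162 CPM at day 30, with overlapping wells. Of the 4 genes taken as marks of this step, MYL2 and MGP rose, AHSG fell, and MYH7 did not pass the test.

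Ratios within a library do not depend on its scaling. The log2 ratio of MYH7 to MYH6 TPM, which is corrected for gene length, was -2.77 ± 0.615 at day 20 and 1.33 ± 1.45 at day 30 (SD, n = 3 each). Day 20 wells 1, 2 and 3 had -2.08, -2.95 and -3.28, and day 30 wells 1, 3 and 10 had 2.48, 1.81 and -0.29. MYH6 was thus the more abundant transcript in every day 20 well and in day 30 well 10, and MYH7 in the other 2 day 30 wells. The difference of 4.10 had p = 0.1 in a two-sided exact permutation test (0.2 adjusted over 4 single values), the smallest p that 3 against 3 wells can give. The log2 ratio of MYL2 to MYL7, the atrial light chain, was -8.10 ± 0.140 at day 20 and -5.96 ± 1.72 at day 30 (SD, n = 3 each, exact permutation p = 0.1, adjusted 0.2). Day 30 wells 1, 3 and 10 had -4.58, -5.41 and -7.89, and day 20 wells -8.25 to -7.99. Day 30 well 10 was thus close to the day 20 wells, and in day 30 well 3 MYL7 itself was low. The log2 ratio of TNNI3 to TNNI1, the adult and fetal forms of troponin I, was -4.23 ± 0.808 and -3.81 ± 0.451 (SD, n = 3 each; exact permutation p = 0.5, adjusted 0.667).

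**Figure D3:**
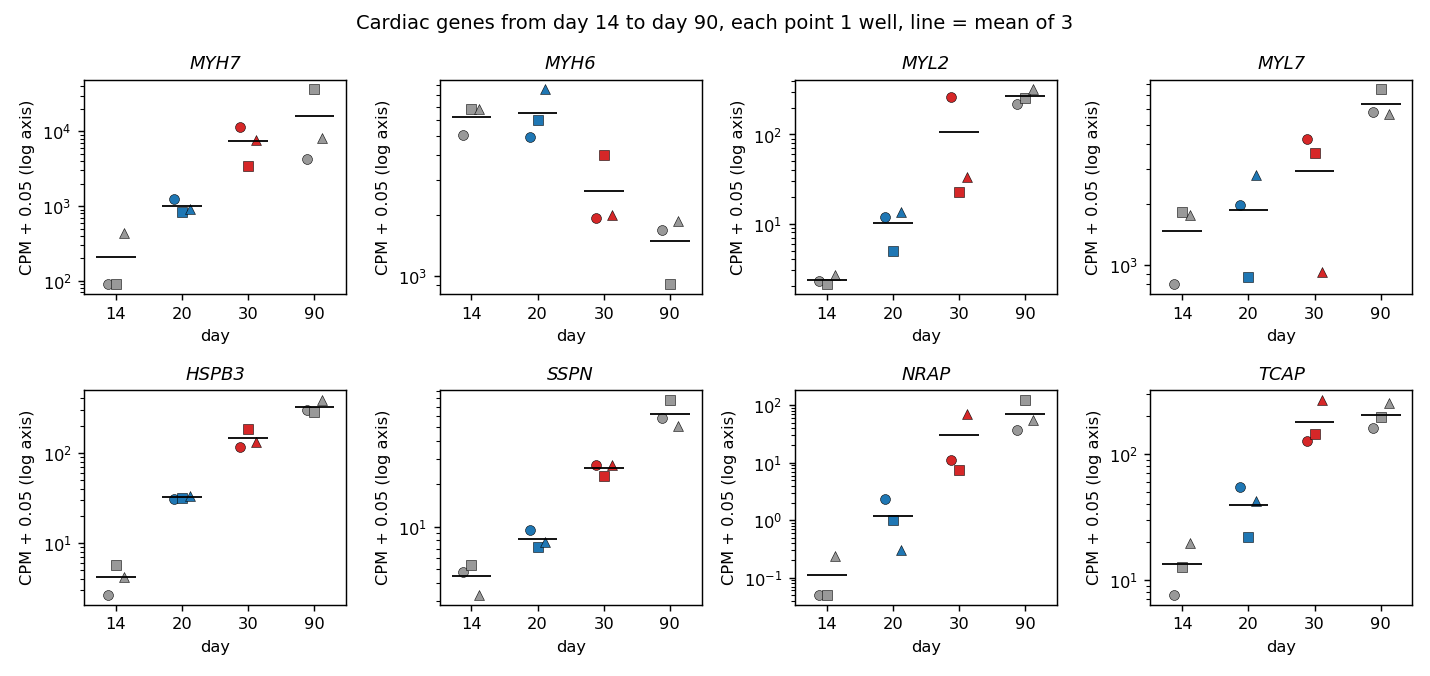
CPM plus 0.05 on a log axis for 8 muscle genes in the 3 wells each of days 14, 20, 30 and 90, with 1 point per well (day 20 blue, day 30 red) and the mean of 3 wells as a line. HSPB3 and SSPN were tight within days 20 and 30, while MYL2 at day 30 ran from 22.6 to 265 CPM and MYL7 was lowest at day 30 in well 3 (917 CPM).

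Sarcomere genes, which encode the contractile filaments and their anchors, lay mostly on the higher side without passing the test. Of 23 tested, 21 were fitted higher and the median log2 change was 0.99, against -0.05 over all genes. Wells lay higher at day 30 without overlap for 8 of them, against 4.22% of all tested genes. Of the 23, 1 rose, against 0.758% of all tested genes, and 0 fell. The rise was TCAP, the Z-disc cap of titin (ENSG00000173991, chromosome 17, 39664187 to 39666555), at 54.3, 21.9 and 42.4 CPM at day 20 and 127, 266 and 144 CPM in day 30 wells 1, 3 and 10. The day 30 wells were all above the day 20 wells, with a log2 change of 2.17 (SE 0.52, adjusted p 0.0134). That call was lost without day 20 well 2 (adjusted p 0.0854) and without both mitochondria-rich wells (0.085). TTN, the giant spring of the sarcomere, was 8292, 10063 and 19488 CPM at day 20 and 26767, 18123 and 7183 CPM in day 30 wells 1, 3 and 10, with overlap. TNNI1 was 749 ± 317 and 1498 ± 460 CPM (SD, n = 3 each, log2 change 1.00, SE 0.43, adjusted p 0.238), without overlap.

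Outside the list, NRAP, which anchors actin filaments during myofibril assembly, had the largest rise among named coding genes. This gene lies on the minus strand of chromosome 10 (ENSG00000197893, 113588716 to 113664127). It overlaps HABP2, on the plus strand, only from 113588716 to 113589602, and how reads there were assigned was not tested. NRAP measured 2.26, 0.958 and 0.256 CPM at day 20 and 10.9, 71.3 and 7.42 CPM in day 30 wells 1, 3 and 10. Every day 30 well was above day 20, with well 3 highest, and the log2 change was 4.65 (SE 0.81, adjusted p 0.000668). LMOD2, which sets thin filament length, was 52.5, 28.6 and 22.2 CPM at day 20 and 59.9, 391 and 205 CPM at day 30 in the same order. Its log2 change of 2.66 (SE 0.75, adjusted p 0.0417) was lost without day 20 well 2 (adjusted p 0.133), day 20 well 3 (0.0954) or day 30 well 3 (0.121).

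Of 12 calcium handling genes, edgeR called 0, with 2 at an unadjusted p under 0.05, while DESeq2 called 1 higher. Over all tested genes 3580 of 22955 had such a p in edgeR, and DESeq2 called 711 of 17161. Of the 12, 10 were fitted higher, with a median log2 change of 0.39. PLN, the brake on the calcium pump of the sarcoplasmic reticulum, was 518, 583 and 370 CPM at day 20 and 858, 794 and 2007 CPM in day 30 wells 1, 3 and 10. The days did not overlap, and the log2 change of 1.31 (SE 0.42) had an adjusted p of 0.0838. ATP2A2, the pump itself, was 819 ± 123 and 932 ± 171 CPM (SD, n = 3 each).

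Of 10 ion channel genes 1 rose and 0 fell, against 0.758% and 1.26% of all tested genes. KCNQ1, the pore of the slow repolarising potassium current, was 14.5, 8.07 and 10.9 CPM at day 20 and 24.2, 32.8 and 26.8 CPM in day 30 wells 1, 3 and 10, without overlap. It shares its locus with KCNQ1OT1. Its log2 change of 1.31 (SE 0.36, adjusted p 0.0363) was lost without day 20 well 2 (0.152), day 20 well 3 (0.0662), day 30 well 1 (0.0507) or day 30 well 3 (0.0607).

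Atrial and pacemaker genes gave 1 fall each and 0 rises, of 13 and 7 tested, against 1.26% and 0.758% of all tested genes. BMP10, a growth factor of atrial and trabecular muscle, was 23.0, 11.1 and 2.59 CPM at day 20 and 3.14, 1.204 and 2.89 CPM in day 30 wells 1, 3 and 10. Day 20 well 3 lay inside the day 30 range, and without day 20 well 1 the adjusted p went from 0.0106 to 0.203. TBX3, a repressor of the working-muscle program in the pacemaker, was 31.6, 56.9 and 48.8 CPM at day 20 and 9.81, 21.7 and 11.4 CPM at day 30 in the same order. Its days did not overlap (log2 change -1.67, SE 0.31, adjusted p 0.00145), and the call held without any single well. MYL7 and MYL4, the atrial light chains, did not pass and were lowest at day 30 in well 3, at 917 and 721 CPM, against 4253 and 2532 CPM in well 1. NPPA, the atrial natriuretic peptide, also differed most between day 30 wells, with 802, 65.0 and 201 CPM in wells 1, 3 and 10.

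Genes of energy supply gave 2 rises. FABP3, which carries fatty acids in heart muscle, was 137, 101 and 123 CPM at day 20 and 314, 241 and 388 CPM in day 30 wells 1, 3 and 10. The days did not overlap and the log2 change was 1.38 (SE 0.30, adjusted p 0.0065), but without both mitochondria-rich wells the adjusted p was 0.119. CD36, a fatty acid transporter, was 9.71, 7.52 and 5.62 CPM at day 20 and 13.7, 9.59 and 50.4 CPM in day 30 wells 1, 3 and 10. Its rise rested on well 10, with an adjusted p of 0.0256 and of 0.37 without that well, and it was also lost without day 20 well 2 (0.0751) or well 3 (0.0759). These were 2 of 16 fatty acid oxidation genes, where 0.758% of all tested genes rose. Of the 16, 14 were fitted higher, with a median log2 change of 0.30. Of 10 muscle energy genes and 16 glycolysis genes edgeR called 0, and DESeq2, which called 711 of 17161 genes, called 0. In edgeR 1 and 4 of them had an unadjusted p under 0.05, against 3580 of 22955 tested genes. Median log2 changes were 0.34 and 0.38, and GAPDH was 3732 ± 1350 and 5284 ± 574 CPM (SD, n = 3 each).

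Liver-secreted protein genes had the lowest median of the 25 lists. Of 20 tested, 10 fell and 0 rose, and all 20 were fitted lower, with a median log2 change of -4.05 against -0.05 over all genes. Over all tested genes 1.26% fell. AHSG, 1 of the 10, was itself taken as a mark of this step, and the list was chosen with earlier results of these data known. Wells lay lower at day 30 without overlap for 17 of the 20, against 4.57% of all tested genes. Summed over the list, day 20 wells 1, 2 and 3 held 2738, 1595 and 6749 CPM, and day 30 wells 1, 3 and 10 held 87.2, 504 and 34.5 CPM. Day 20 well 3 was the highest on its day and day 30 well 3 on its own, and even the highest day 30 well was below the lowest day 20 well. In RNA of whole wells, fewer cells of a type and less RNA per cell cannot be told apart.

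AHSG (ENSG00000145192, chromosome 3, 186612923 to 186621318), fetuin-A, a plasma protein of the fetal liver, was 67.5, 24.5 and 91.3 CPM in day 20 wells 1, 2 and 3. In day 30 wells 1, 3 and 10 it was 0.163, 3.43 and 0.390 CPM, at or near the level of 3 counts in 2 of the wells. Every day 30 well was below every day 20 well, with a log2 change of -5.48 (adjusted p 0.0304, SE 1.47). The adjusted p was 0.126 without day 30 well 1 and 0.0871 without day 30 well 10. APOB, the carrier protein of low-density lipoprotein (ENSG00000084674, chromosome 2, 21001429 to 21044073), was 110, 168 and 382 CPM at day 20 and 1.63, 11.2 and 1.33 CPM at day 30 in the same order. Its days did not overlap, with a log2 change of -5.52 (SE 1.09, adjusted p 0.00262), and the call held without any single well.

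AFP, alpha-fetoprotein, was the most abundant member, with 1587, 840 and 3390 CPM at day 20 and 20.6, 209 and 9.45 CPM in day 30 wells 1, 3 and 10. The wells did not overlap and the mean was 24.4-fold higher at day 20, but the log2 change of -4.60 (SE 1.51) had an adjusted p of 0.0921. F2, prothrombin, had the smallest p on the list, with a log2 change of -4.06 (adjusted p 2.89e-05, SE 0.54). The other falls were in APOA2, FGG, FGB, TF, SERPINA1, AMBP and VTN, with log2 changes of -4.54 to -2.83. AMBP was the one of these whose wells overlapped, at 8.62 CPM in day 20 well 2 and 9.77 CPM in day 30 well 3. The count of falls depended on single wells. It was 7 without day 20 well 3, 4 without day 30 well 1, 4 without day 30 well 10 and 16 without day 30 well 3. Without both mitochondria-rich wells it was 4, and DESeq2 gave 15.

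Falls outside the list, named by size, included AKR1D1, an enzyme of bile acid synthesis. It was 5.72, 5.06 and 22.0 CPM at day 20 and 0.244, 0.324 and 0 CPM in day 30 wells 1, 3 and 10. Its day 30 levels were at or near 3 counts, so the fitted log2 change of -5.67 is uncertain in size. PLG, ADH1B, CYP3A7 and KLB fell as well, and for CYP3A7 the fall rested on day 20 well 3 (18.5 CPM, against 0.844 and 0.821 CPM in wells 1 and 2), with an adjusted p of 0.398 without it. The calls of ADH1B (0.103) and KLB (0.0987) were also lost without that well, and without day 30 well 1 those of KLB (0.107) and CYP3A7 (0.0739).

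**Figure D4:**
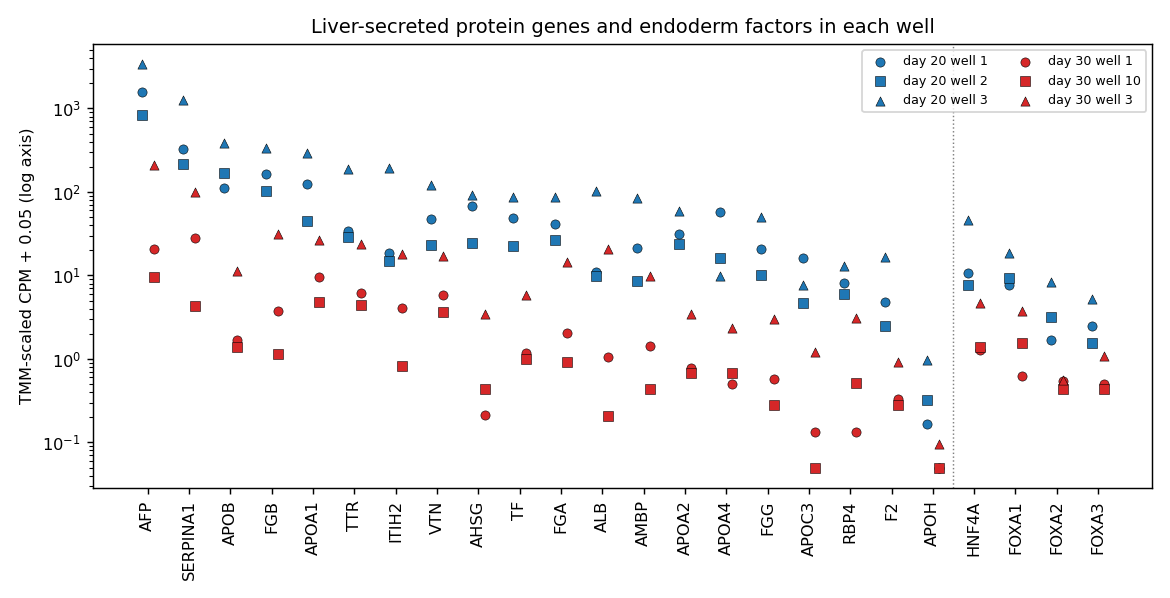
CPM plus 0.05 on a log axis (y) for 20 liver-secreted protein genes and 4 endoderm transcription factors (x), 1 point per well, with day 20 in blue and day 30 in red. Red points lie below blue points for most genes, and triangles (well 3 of each day) are usually the highest of their color, as in the list sums of 6749 CPM at day 20 and 504 CPM at day 30.

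Of 15 endoderm transcription factor and epithelial genes 4 fell and 0 rose, against 1.26% and 0.758% of all tested genes. Their median log2 change was -2.17. The falls were HNF4A, which drives the hepatocyte program, and FOXA1, FOXA2 and FOXA3, the forkhead factors that open liver and gut enhancers. HNF4A was 10.8, 7.66 and 46.2 CPM at day 20 and 1.22, 4.58 and 1.33 CPM in day 30 wells 1, 3 and 10, without overlap (log2 change -3.17, SE 0.88, adjusted p 0.0387). That call was lost without day 20 well 3 (0.211), day 30 well 1 (0.152) or day 30 well 10 (0.0988). FOXA2 was 1.65, 3.15 and 8.25 CPM at day 20 and 0.489, 0.509 and 0.390 CPM at day 30, again without overlap, and its call held without any single well. The other 11 members of the list did not pass. KRT19, a keratin, was 435 ± 170 and 525 ± 348 CPM, and CLDN6, a tight junction protein, 164 ± 28.0 and 148 ± 44.01 CPM (SD, n = 3 each). EPCAM, an epithelial adhesion protein, was 53.8 ± 33.7 and 19.1 ± 14.3 CPM (SD, n = 3 each, adjusted p 0.0764).

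Because these genes moved together, the bases before their transcription starts are shown for a few of them. The sequences are from RefSeq (GRCh38.p14), in which 15 of the 20 liver genes had 20 starts, and each stretch ends before the first exon annotated there in GENCODE. Capitals mark the searched letters, GTTAAT (1 arm of an HNF1 site) or CAAAGTCCA (an HNF4 core), read on either strand.

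AHSG, chr3:186612810-186612922, plus strand: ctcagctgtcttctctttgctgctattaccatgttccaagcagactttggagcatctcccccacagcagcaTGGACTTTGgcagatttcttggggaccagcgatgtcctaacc

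FGB, chr4:154562730-154562955, plus strand: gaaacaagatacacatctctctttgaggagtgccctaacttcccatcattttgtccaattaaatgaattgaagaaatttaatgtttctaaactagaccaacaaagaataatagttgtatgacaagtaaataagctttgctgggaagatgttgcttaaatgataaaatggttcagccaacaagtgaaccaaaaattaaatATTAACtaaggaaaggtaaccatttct

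AFP, chr4:73435971-73436162, plus strand: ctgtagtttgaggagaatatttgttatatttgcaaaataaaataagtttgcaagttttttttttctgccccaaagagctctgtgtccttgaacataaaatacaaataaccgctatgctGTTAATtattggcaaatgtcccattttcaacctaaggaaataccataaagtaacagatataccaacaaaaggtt

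GTTAAT was found in the 250 bases before 8 of the 20 liver starts (40.0%), in AFP, ALB, APOH, F2, FGA, FGB and SERPINA1, against 6.23% of 35116 starts in the table and 1 of 25 starts of sarcomere genes. The starts of FGB share the same site, which is counted for each of them. In F2 most of the match lies past the point where the first exon annotated in GENCODE begins. The 9-letter HNF4 core was found before AHSG only, 1 of 20, against 0.325% of all starts. The motifs do not overlap each other in letters, and a match describes the sequence, not a bound factor. In FGB the letters lie 51 to 46 bases before the start and in AFP 132 to 127.

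Among matrix and stromal genes the rises were few. Of 16 fibroblast and matrix genes 1 rose and 0 fell, against 0.758% and 1.26% of all tested genes. Their median log2 change was -0.03, and the 1 that rose, MGP, was itself taken as a mark of this step. MGP, an inhibitor of calcification in vessel wall and cartilage (ENSG00000111341, chromosome 12, 14881181 to 14885926, overlapping C12orf60), was 3.53, 1.505 and 0.146 CPM at day 20 and 39.1, 38.9 and 7.58 CPM in day 30 wells 1, 3 and 10. All day 30 wells were above all day 20 wells, with a log2 change of 4.03 (SE 0.82, adjusted p 0.00326), and the call held without any single well. ASPN, a small matrix proteoglycan that overlaps CENPP, was 1.15, 0.274 and 0.0365 CPM at day 20 and 5.09, 15.7 and 16.9 CPM at day 30 in the same order, without overlap (log2 change 4.56, SE 0.77). The abundant collagens did not pass the test. COL3A1 was 7135, 1722 and 1201 CPM at day 20 and 2490, 4668 and 1961 CPM in day 30 wells 1, 3 and 10, and COL1A1 was 653 ± 337 and 654 ± 343 CPM (SD, n = 3 each).

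Further rises named by size included C4A and C4B, which encode complement component C4. C4A was 3.76, 1.37 and 1.497 CPM at day 20 and 9.73, 72.9 and 7.18 CPM in day 30 wells 1, 3 and 10. C4B was 7.83, 8.34 and 7.52 CPM at day 20 and 37.2, 147 and 17.6 CPM at day 30 in the same order. C4A and C4B are near-identical copies, so their split is uncertain. Well 3 was the highest for both at day 30, and for both genes the days did not overlap. Other rises named by size were P2RX1, an ATP-gated channel, CNTN1, a neural adhesion protein, and FGF5, a growth factor. CNTN1 was highest in day 30 well 1 (52.5 CPM, against 12.6 and 7.73 CPM in wells 3 and 10), and its adjusted p without that well was 0.097. For FGF5 the adjusted p was 0.0569 without day 20 well 3 and 0.0786 without day 30 well 3.

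Lists of other cell types gave 1 call. For 15 endothelial, 8 smooth muscle, 8 epicardial and 8 tested blood cell genes edgeR called 0, with 4, 1, 3 and 2 at an unadjusted p under 0.05. DESeq2 called 1 in each of these lists, a rise for smooth muscle and falls for the others. Over all tested genes 3580 of 22955 had such a p in edgeR, and DESeq2 called 711 of 17161. Fitted changes lay mostly on the lower side for epicardial genes (7 of 8, median log2 change -1.02), blood cell genes (7 of 8, median -1.605) and neural genes (8 of 10, median -0.9975). These medians depended on single wells. Without day 20 well 1 the epicardial median was 0.246. Without day 20 well 2 the neural median was 0.418 and the blood cell median -0.292. Leaving out any other single well kept these medians negative. Summed neural levels overlapped, at 54.9 to 134 CPM at day 20 and 58.7 to 107 CPM at day 30. Endothelial genes (10 of 15 higher) had a median of 0.25 and smooth muscle genes (3 of 8 higher) one of -0.08, against -0.05 over all genes. The endothelial median was -0.218 without day 20 well 3 and -0.547 without day 30 well 3, with 2 members called lower each time. Without any other single well it was 0.415 to 0.794, with 1 member called higher without day 20 well 1. The smooth muscle median was -0.298 to 0.117 over single wells left out. Summed levels overlapped for endothelial genes (130 to 335 CPM at day 20, 86.1 to 283 CPM at day 30), smooth muscle genes (1893 to 2692 CPM, 1353 to 3243 CPM) and epicardial genes (15.1 to 174 CPM, 25.5 to 59.7 CPM). Blood cell genes were near the detection limit, with sums of 4.07 to 6.57 CPM at day 20 and 0.448 to 4.14 CPM at day 30, and PTPRC, which marks white blood cells, was at 0 in 3 of the 6 wells. Of 10 neural genes 1 fell, against 1.26% of all tested genes. It was DCX, a microtubule protein of young neurons, with 2.49 ± 2.60 CPM at day 20 and 0.303 ± 0.414 CPM at day 30 (SD, n = 3 each, adjusted p 0.00483). Its call was lost without day 20 well 3 (0.155) or day 30 well 1 (0.0512).

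Of the developmental genes tested, LIN28A fell. LIN28A, an RNA-binding protein that blocks the let-7 microRNAs, was 25.3, 36.2 and 93.4 CPM at day 20 and 9.24, 8.52 and 14.4 CPM in day 30 wells 1, 3 and 10. The days did not overlap, with a log2 change of -2.28 (SE 0.32, adjusted p 5.34e-05 with all libraries, 0.0498 with weights and 0.104 for days 11 to 90). It was the one call among 8 pluripotency genes and among 6 heterochronic genes, which time developmental stages, where 1.26% of all tested genes fell. DNMT3B, a DNA methyltransferase of early cells, passed the p threshold but not the fold threshold, at 28.3 ± 6.88 and 15.8 ± 2.26 CPM (SD, n = 3 each, log2 change -0.85, SE 0.17, adjusted p 0.00265). HMGA2 and the IGF2BP genes, also on the heterochronic list, did not pass. ID2, an inhibitor of helix-loop-helix factors downstream of BMP signals, was 77.7, 79.2 and 137 CPM at day 20 and 21.1, 17.9 and 47.0 CPM in day 30 wells 1, 3 and 10, without overlap (log2 change -1.78, SE 0.27).

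Proliferation genes were fitted lower but differed mainly in 1 well. Of 21 cell cycle genes edgeR called 0, with 4 at an unadjusted p under 0.05 (over all tested genes, 3580 of 22955). DESeq2 called 0 of the 21, and 20 were fitted lower with a median log2 change of -0.57. Their sum was 603, 507 and 2549 CPM in day 20 wells 1, 2 and 3, against 938, 619 and 970 CPM in day 30 wells 1, 3 and 10. Day 20 wells 1 and 2 thus had less than every day 30 well, and day 20 well 3 far more. MKI67, a marker of cycling nuclei, was 25.1, 42.3 and 165 CPM at day 20 and 32.1, 29.5 and 36.9 CPM at day 30. The linker histone gene HIST1H1B was 36.4, 27.2 and 455 CPM at day 20 and 55.3, 24.96 and 87.8 CPM at day 30, in the same order of wells. Histone genes have similar copies, so single values are uncertain.

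Single wells accounted for much of the spread on both days. A gene with at least 20 CPM in a well was counted for it when the well exceeded 4 times both other wells of its day. This held for 138 coding genes in day 20 well 3 and 161 in day 30 well 3, but for 4 to 13 genes in each of the other 4 wells. Among 8561 coding genes at day 20 and 8535 at day 30, 4.77% and 5.93% spanned more than 4-fold across the 3 wells, against 0.0% at day 0 and 3.86% at day 90.

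In day 20 well 3 the 6 genes with the largest ratio were histone genes, led by HIST2H3C (306 CPM, against 21.3 and 20.8 CPM). In day 30 well 3 they were C4orf54, ATP6V1FNB, ARID5A, TNFRSF11B, CENPN and LRRC4. C4orf54 was 243 CPM there and 0.204 and 3.59 CPM in wells 1 and 10, against 9.40, 5.33 and 0.475 CPM at day 20. Its call as a rise (adjusted p 0.0401) turned to a log2 change of -1.46 without that well (adjusted p 0.47), and TNFRSF11B, which encodes the decoy receptor osteoprotegerin, went from 3.38 to -0.0042 (adjusted p 0.00737 and 1.0). RCAN1, a calcineurin inhibitor, was 825 CPM in that well and 31.2 and 46.2 CPM in wells 1 and 10, against 65.7 ± 24.6 CPM at day 20 (SD, n = 3), and its call (adjusted p 0.0375) turned to a log2 change of -0.77 without it. That call was also lost without day 20 well 1 (0.0537), well 2 (0.0878) or well 3 (0.0996), and the call of C4orf54 without day 20 well 2 (0.112) or well 3 (0.0919). RCAN1 was chosen after its values were seen.

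Immediate early genes, which are switched on within minutes of stimulation, followed wells and not days. Of 12 tested edgeR called 0, with 1 at an unadjusted p under 0.05 (over all tested genes, 3580 of 22955), and DESeq2 called 0. Their sums were 868, 553 and 210 CPM in day 20 wells 1, 2 and 3 and 343, 1732 and 251 CPM in day 30 wells 1, 3 and 10. THBS1, a matrix glycoprotein chosen after its values were seen, showed the same order within each day, with 2207, 1446 and 205 CPM at day 20 and 213, 3375 and 172 CPM at day 30. Both were high in day 20 wells 1 and 2 and day 30 well 3, and low in the remaining 3 wells. The part of these well differences in the day comparison was not tested beyond leaving out wells.

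In the 2 mitochondria-rich wells the leading genes were MT-ATP8 and others of the mitochondrial chromosome in day 20 well 2, and MT-ND6 in day 30 well 10 (433 CPM, against 13.9 and 9.86 CPM). The mitochondrial share of counts was 2.15 ± 2.10% at day 20 and 2.16 ± 2.09% at day 30 (SD, n = 3 each), a difference of 0.0163 percentage points (two-sided exact permutation p = 1.0). In day 30 well 1 the leading genes were MYL2, MYH11, ALDH1A2, CNTN1, NPPA and ACTA1. ACTA1, skeletal actin, was 1329 CPM there and 337 and 51.1 CPM in wells 3 and 10. Day 20 well 1 was led by DIO3, which inactivates thyroid hormone, at 37.4 CPM against 6.16 and 2.92 CPM in wells 2 and 3. DIO3 was called as a fall at day 30 (log2 change -3.10, SE 0.57, adjusted p 0.00128), but its wells overlapped and without day 20 well 1 the adjusted p was 0.184.

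**Figure D5:**
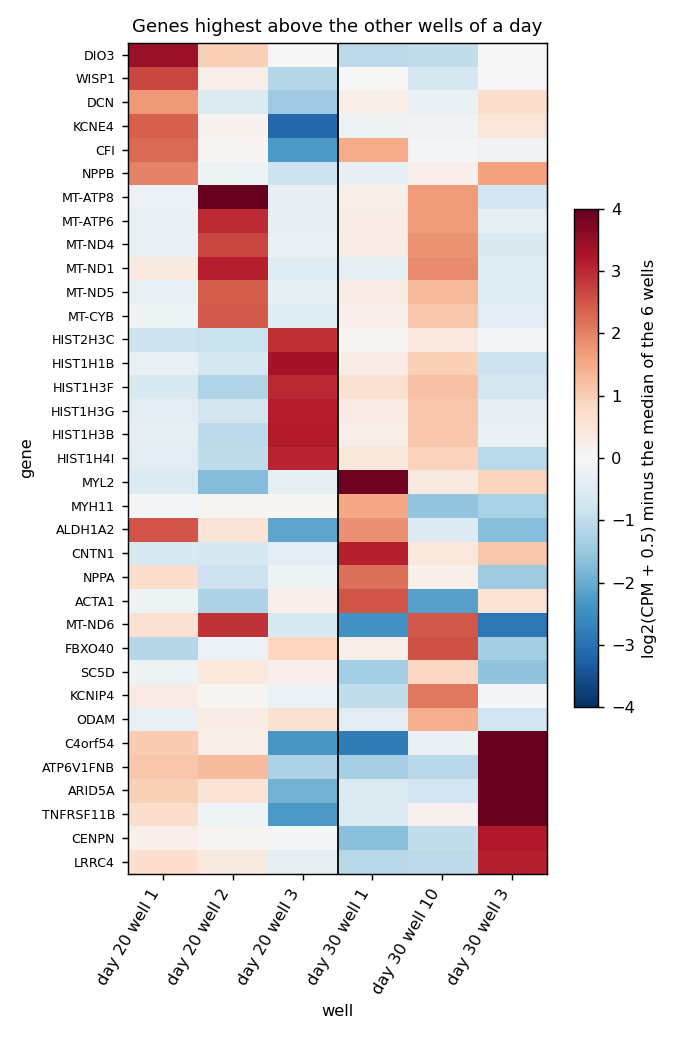
The 6 coding genes with the largest ratio to the other wells of the same day, for each of the 6 wells (rows), shown as log2(CPM + 0.5) minus the median of the 6 wells (color, limited to -4 and 4) in each well (columns). Histone genes stand out in day 20 well 3 and a block led by C4orf54 (243 CPM) in day 30 well 3, while mitochondrial genes are high in day 20 well 2 and day 30 well 10.

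Stress and nutrient lists gave 1 call, a rise, where 0.758% of all tested genes rose. Of 10 hypoxia genes 1 rose, EGLN3, an oxygen-sensing hydroxylase, at 51.3, 38.3 and 29.1 CPM at day 20 and 78.4, 202 and 57.9 CPM in day 30 wells 1, 3 and 10, without overlap (log2 change 1.51, SE 0.29, adjusted p 0.00174). Without day 30 well 3 its log2 change was 0.79, under the fold threshold. Of 13 ATF4 target genes, 12 cholesterol synthesis genes and 7 metallothionein genes edgeR called 0. In edgeR 5, 2 and 2 of them had an unadjusted p under 0.05, against 3580 of 22955 tested genes. DESeq2 called 2, 1 and 0, against 711 of 17161 genes. Median log2 changes were 0.42 for hypoxia genes (8 of 10 fitted higher), 0.47 for ATF4 targets (11 of 13 higher) and 0.12 for cholesterol genes (7 of 12 higher). All 7 metallothionein genes were fitted lower, with a median of -1.27 and overlapping wells. Without day 20 well 1 that median was -0.139, and without any other single well it was -1.71 to -1.27. The median of the ATF4 targets was -0.137 without day 30 well 3 and positive without any other single well. RLE scaling called 2 of the ATF4 genes higher and 1 of the cholesterol genes. STARD4, a sterol carrier, was 171 ± 1.17 and 338 ± 56.3 CPM (SD, n = 3 each), a change with an adjusted p of 0.00211 and a log2 size of 0.98, just under the fold threshold.

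Levels at days 14 and 90 place the 10-day step in the longer course. The liver list summed to 7225, 6557 and 5527 CPM in the day 14 wells and to 16.0, 289 and 15.7 CPM in the day 90 wells, so 2 of the 3 day 90 wells were below all day 30 wells. MYH7 was 89.5 to 440 CPM at day 14 and 4301 to 36479 CPM at day 90, a range that holds 2 of the 3 day 30 wells. HSPB3 reached 282 to 382 CPM and SSPN 51.0 to 77.5 CPM at day 90, above every day 30 well for both. TCAP was 160 to 251 CPM and LINC00881 59.5 to 115 CPM at day 90, ranges that overlapped those of day 30. These levels are given as a description, and no test between days other than 30 and 20 was made.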

How the data were processed

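Total RNA of 44 wells was made into stranded libraries and sequenced as 150 bp read pairs, 10 samples per lane, per the labels' protocols. Reads were processed by the authors with cutadapt, STAR 2.5.2b and RSEM 1.2.31 on build hg38, per the submitters' processing notes. The authors deposited RSEM expected counts per gene, not normalized, and TPM, which corrects for gene length and depth. The deposited RNA integrity number is a score from the labels. Expected counts were rounded to whole numbers. Of all values, zeros included, 93.84% already were whole, and of values above 0, 85.97%. Gene names come from GENCODE 29, which holds 56769 of 60499 identifiers.

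Counts were scaled with TMM, filtered with filterByExpr and tested with edgeR 4.0.16 (R 4.3.3) over all 12 groups, with Benjamini-Hochberg adjustment over 22955 genes. Standard errors are the log2 change divided by the root of the F statistic. CPM are scaled by the TMM library sizes, and SDs are over wells. Alternatives used DESeq2 1.42.0, limma 3.58.1 on log2(TPM + 1) or log2(TPM + 0.1), other filters and scalings, fewer libraries, a lane term, a replicate term and leaving out wells. The code was tested on simulated data. Named genes were the 12 coding genes that rose most and the 12 that fell most among called genes with at least 5 CPM in the higher group and no overlap of wells, the called members of 25 lists with the most abundant others as examples, and 6 coding genes per well with the largest ratio to the other wells of its day. Genes called in the fit of days 11 to 90 or with weights, and others where stated, were named after their values were seen. The members and lists were chosen with earlier results of these data known. Some genes that the naming rule picks are not reported here.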

Additional observations from a re-analysis of the deposited data

How the results depend on the processing

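The count of 463 called genes was within 1.5 times under RLE scaling, 2 other filters, a lane term and without both mitochondria-rich wells (chosen after seeing the data). It was 711 with DESeq2, 61 and 53 with limma on TPM (pseudocounts 1 and 0.1; 59.0% and 22.6% higher), 51 with a pseudocount of 1 and no filter (68.6%), 5 in days 11 to 90 (80.0%), 0 in the 6 wells and 14 with a weight per group (78.6%). Leaving out wells gave 352 to 958 calls, of which 30.3% to 53.7% were higher. Of 59 named called genes, RLE scaling, DESeq2 and no filter kept all 59 calls, a lane term 50, the replicate block 41, leaving out single wells 44 to 55, and leaving out both mitochondria-rich wells 46. Limma on TPM kept 23 and 19 of 50 (pseudocounts 1 and 0.1) and 19 of 59 with no filter, days 11 to 90 kept 5, the weighted fit 14 and the 6 wells 0. Replicate numbers 1 and 3 are shared by both days, but same-numbered wells did not deviate together (correlations of -0.156 and -0.363). A fit with the replicate block called 325 genes (31.4% higher), 241 of them among the 463. Leaving out single wells, the difference in the log2 ratio of TNNI3 to TNNI1 was -0.041 to 0.69, and that in the mitochondrially encoded share of counts -1.18 to 1.23 percentage points (-0.512 as a share of TPM). Without day 30 well 3 the log2 changes of 5 genes reversed, and over single wells left out they ranged from -1.46 to 5.08 (C4orf54), -0.0042 to 4.36 (TNFRSF11B), -1.40 to 2.24 (CENPN), -0.77 to 2.73 (RCAN1) and -2.09 to 1.43 (NR4A1); the cause was not tested. Between TPM and scaled counts the median log2 change of 5029 genes shifted by -0.11. In day 20 well 2, the shallowest library, 3 counts are 0.410 CPM, which limits the lowest genes.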
